A study of Mus musculus with 16 samples.

Results

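The receptors described here are those through which hematopoietic growth factors act on BM cells. The 9 genes Csf3r, Csf2ra, Csf2rb, Csf2rb2, Csf1r, Kit, Flt3, Il3ra and Epor were taken by symbol from the feature list shared by the 12 BM libraries, which holds 32286 features, and each symbol named exactly 1 row with an Ensembl identifier. RNA of single BM cells had been counted as unique molecular identifiers (UMIs) with 3′ droplet chemistry and sample tags. The libraries came from 3 groups of female BALB/c mice, with 2 replicate libraries per group and sort. WT mice carried no tumor. Vehicle mice bore transplanted 2208L mammary tumors, which are Trp53-null and model triple-negative breast cancer, and received 0.5% methylcellulose by mouth. IACS-70654 mice bore the same tumor and received IACS-70654, an oral inhibitor of the bromodomains of the acetyltransferases CBP and P300, in 5 treatments over 6 days. Tumor pieces had been implanted at 7 to 8 weeks of age. Because WT mice had neither tumor nor vehicle, tumor and vehicle cannot be told apart in a comparison with WT. Each library pooled cells of 3 mice, and the series record can be read as 1 pool per treatment group, so p-values measure only the spread between libraries, which may be technical.

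The set joins cytokine receptors and receptor tyrosine kinases. Csf3r (the G-CSF receptor), Csf2ra and Il3ra (the chains that bind GM-CSF and IL-3), Csf2rb (the chain shared by the GM-CSF, IL-3 and IL-5 receptors), its neighboring paralog Csf2rb2 (a chain used by IL-3 in mice) and Epor (the erythropoietin receptor) are cytokine receptors that signal through bound JAK kinases and STAT factors. Csf1r, Kit and Flt3 are receptor tyrosine kinases for CSF-1, stem cell factor and FLT3 ligand. In BM, Kit and Flt3 are known as receptors of stem and progenitor cells, Csf3r of neutrophils, Csf1r of monocytes and macrophages, and Epor of erythroid progenitors.

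In GRCm38 (GENCODE vM21) Csf3r (ENSMUSG00000028859) lies at chr4:126024550-126044440 on the plus strand, Kit (ENSMUSG00000005672) at chr5:75574916-75656722 on the plus strand and Flt3 (ENSMUSG00000042817) at chr5:147330741-147400489 on the minus strand. Csf2rb (ENSMUSG00000071713, chr15:78325752-78353847, plus strand) and Csf2rb2 (ENSMUSG00000071714, chr15:78282507-78305721, minus strand) are neighbors, and 28.0% of the 31-base stretches of the Csf2rb transcript also occur in Csf2rb2, but 1.28% of those in its last 500 bases, where 3′ chemistry counts most reads. Csf2ra (ENSMUSG00000059326) is at chr19:61223957-61228429, Il3ra (ENSMUSG00000068758) at chr14:14346275-14356011, Epor (ENSMUSG00000006235) at chr9:21958897-21963506, and the Csf1r row is ENSMUSG00000024621. Flt3 and Il3ra overlap antisense transcripts and Csf1r overlaps Hmgxb3 on the other strand. Whether the counting used strand is not given in the sources used here.

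RefSeq upstream windows of 250 bases (GRCm38.p6, written 5′ to 3′ on the strand of the gene) were at hand for 7 of the 9 genes, and 4 are shown, those of Csf3r, Csf2rb2, Kit and Flt3, because most of the group differences below concern them. No window was at hand for Csf2rb, the receptor with most calls, or for Csf1r. Capitals mark GAGGAA or its reverse complement TTCCTC, a core of the kind bound by PU.1 (Spi1), a factor of myeloid cells.
Csf3r, chr4:126024409-126024658, plus strand: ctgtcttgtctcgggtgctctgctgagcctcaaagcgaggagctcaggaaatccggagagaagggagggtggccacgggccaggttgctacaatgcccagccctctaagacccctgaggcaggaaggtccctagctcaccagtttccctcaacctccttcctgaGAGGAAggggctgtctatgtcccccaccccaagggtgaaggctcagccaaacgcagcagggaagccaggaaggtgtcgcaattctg
Csf2rb2, chr15:78305722-78305971, minus strand: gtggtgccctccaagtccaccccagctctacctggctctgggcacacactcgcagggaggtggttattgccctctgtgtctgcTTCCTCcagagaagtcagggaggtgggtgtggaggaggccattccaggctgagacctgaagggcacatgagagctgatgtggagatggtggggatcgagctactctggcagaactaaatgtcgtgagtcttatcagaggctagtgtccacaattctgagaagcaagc
Kit, chr5:75574737-75574986, plus strand: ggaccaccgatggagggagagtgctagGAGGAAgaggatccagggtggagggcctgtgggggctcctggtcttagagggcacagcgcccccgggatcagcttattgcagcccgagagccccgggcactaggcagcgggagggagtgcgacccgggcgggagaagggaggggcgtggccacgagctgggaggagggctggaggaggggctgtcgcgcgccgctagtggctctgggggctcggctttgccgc
Flt3, chr5:147400490-147400739, minus strand: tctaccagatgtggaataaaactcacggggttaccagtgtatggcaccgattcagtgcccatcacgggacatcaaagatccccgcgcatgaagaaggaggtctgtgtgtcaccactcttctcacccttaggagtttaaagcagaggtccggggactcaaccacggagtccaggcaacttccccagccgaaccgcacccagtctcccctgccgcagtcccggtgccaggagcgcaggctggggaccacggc
The letters GAGGAA, searched on both strands, occurred in 23.3% of 32851 windows of this length over all genes, 1 time each in the windows of Csf3r, Csf2rb2 and Kit, and not in that of Flt3. Neither TTNNGCAA (a C/EBP-type sequence, 9.56% of all windows) nor TGACTCA (AP-1, 4.46%) was found in these 4 windows on either strand. Of the windows not shown, that of Il3ra held TTNNGCAA 1 time and that of Csf2ra held GAGGAA 2 times. A match is a description of the letters in the window and not of binding.

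From 4394 to 6154 CD45+Ter119- cells (the CD45+ sort) and 2836 to 7517 lineage-negative c-Kit+CD45+ cells (the c-Kit+ sort) were kept per library, with medians of 4113 to 6596.5 and 6712 to 9512 UMIs per cell. Pairs of libraries within a sort had no cell barcode in common, and pairs across sorts had 1 to 14. Cells were clustered without the 9 receptor genes, and clusters were named from marker lists into 14 classes in the CD45+ sort and 16 in the c-Kit+ sort. Each name stands for cells like the named type. The neutrophil clusters separated by group, so in the between-group values below mature neutrophils were mostly clusters 9 and 0 in WT (46.3% and 41.5% of the class), clusters 1 and 0 in vehicle (50.4% and 29.8%) and cluster 3 in IACS-70654 (87.8%). Intermediate neutrophils were mostly cluster 5 in WT and vehicle (93.7% and 92.9%) and cluster 7 in IACS-70654 (94.1%). Immature neutrophils were mostly cluster 2 in WT and vehicle (97.6% and 91.0%) and cluster 8 in IACS-70654 (88.5%). The 6 neutrophil stages held 66.0% to 68.2% of kept CD45+ cells in WT, 87.5% to 88.4% in vehicle and 82.1% to 82.4% in IACS-70654. Levels are given as CPM, the UMIs of a gene scaled to a total of 1000000 UMIs of a class in a library, so they are not per length and are compared between classes and groups but not between genes. Log2 changes are those fitted by edgeR with TMM factors, and a gene was called at an adjusted p under 0.01 with a log2 change over 0.5 in size. With library size alone the median change of all genes from vehicle to IACS-70654 stood at 0.22 in mature, 0.23 in immature and 0.28 in intermediate neutrophils, so fitted changes there lie below the ratio of the CPM.

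**Figure D1:**
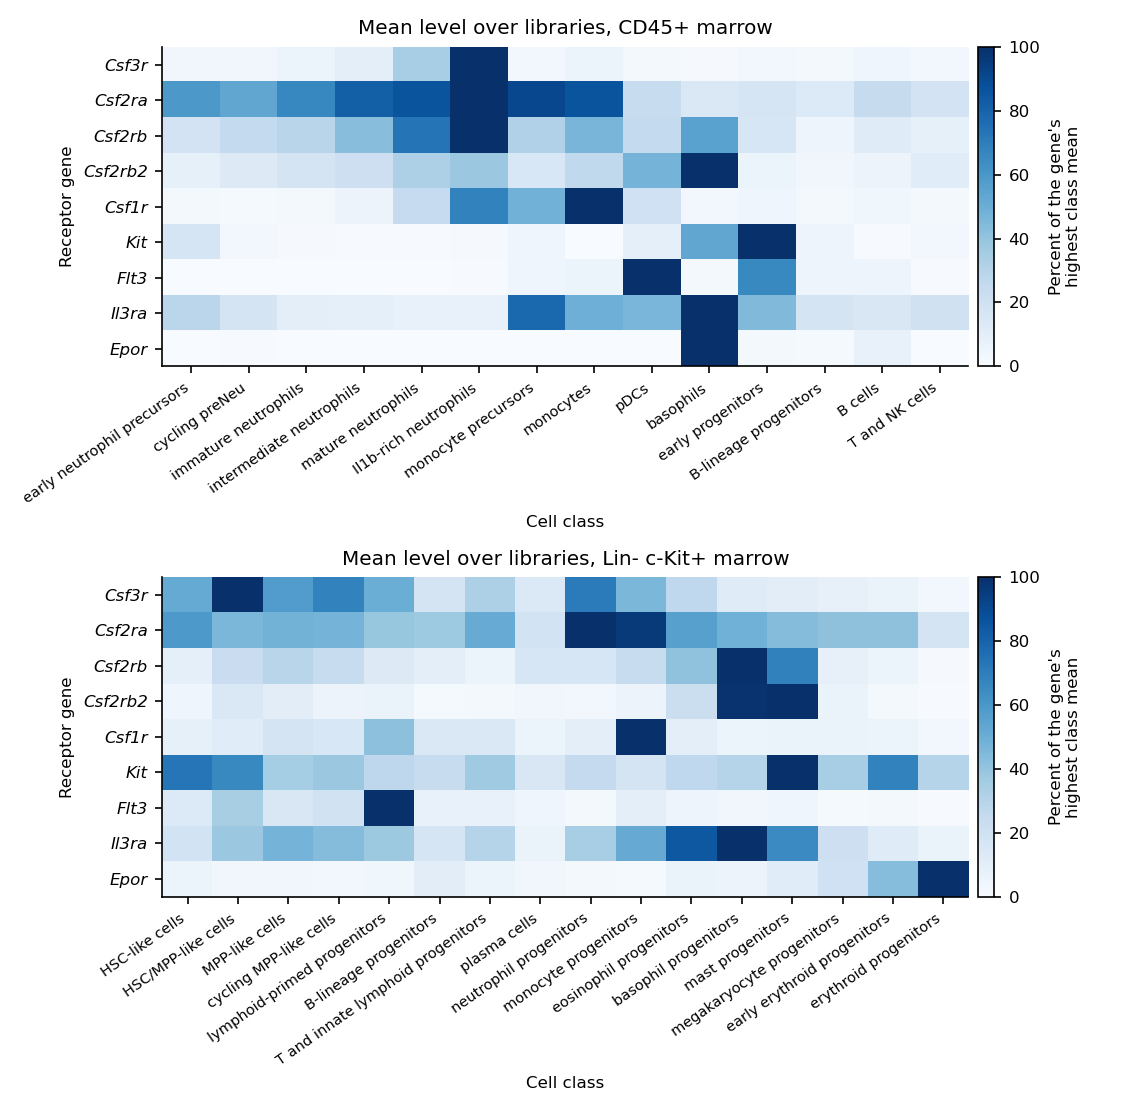
Mean level of each receptor gene (rows) in each class (columns) of the CD45+ and the c-Kit+ sort, as a percentage of the gene's own highest class mean in that sort. Csf3r peaks in Il1b-rich neutrophils, Csf1r in monocytes, Flt3 in pDCs and lymphoid-primed progenitors and Epor in erythroid progenitors.

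The class in which a receptor stood highest differed between genes and between sorts. In CD45+ cells Csf3r, Csf2ra and Csf2rb were highest in Il1b-rich neutrophils, Csf2rb2, Il3ra and Epor in basophils, Csf1r in monocytes, Kit in early progenitors and Flt3 in plasmacytoid dendritic cells (pDCs). The CD45+ basophil class also held 9 erythroid markers at a summed 332 to 1194 CPM, against 0 to 247 CPM in the other CD45+ classes, and their part in its receptor levels was not tested. Marker levels moved with the group in other classes as well, and their part in the receptor changes was not tested. In c-Kit+ cells Csf3r was highest in HSC/MPP-like cells, Csf2ra in neutrophil progenitors, Csf2rb and Il3ra in basophil progenitors, Csf2rb2 and Kit in mast progenitors, Csf1r in monocyte progenitors, Flt3 in lymphoid-primed progenitors and Epor in erythroid progenitors. At least 3 UMIs in a library were reached by every gene in all 14 CD45+ classes, except Flt3 in 13 and Epor in 1. In the c-Kit+ sort this was so in all 16 classes, except for Csf1r and Il3ra in 15, Csf2rb2 in 13 and Epor in 12. Free RNA can give UMIs to any cell, and B cells together with T and NK cells were used to gauge it. After thinning each cell to 1000 UMIs in the CD45+ sort, the share of cells with a UMI exceeded that in both of these classes in every library in 30 of 108 gene and class pairs. The c-Kit+ sort held neither class. Its B-lineage progenitors and its T and innate lymphoid progenitors took their place, and 17 of 126 pairs exceeded both after thinning to 3000 UMIs. These progenitors held the receptors themselves, with mean levels of 90.0 and 141 CPM of Kit and 39.7 and 38.8 CPM of Flt3, so this count is not one against cells that lack them.

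Calls among the receptors came mostly from comparisons with WT in CD45+ cells. In that sort 14 of 82 receptor tests were called in vehicle against WT, 11 higher and 3 lower in vehicle, where 2.27% of all gene and class tests were called (1.3% higher and 0.97% lower). The median fitted change over the receptors was 0.15 on the log2 scale. IACS-70654 against vehicle had 6 of 78 calls, 5 higher and 1 lower, beside 8.38% of all tests (4.04% higher and 4.35% lower), so that the receptors were near the background. IACS-70654 against WT had 19 of 78 calls, 16 higher and 3 lower, beside 7.5% of all tests (3.41% higher and 4.09% lower). In c-Kit+ cells 1 of 93 tests was called for vehicle against WT, higher in vehicle, beside 0.661% of all tests (0.399% higher and 0.262% lower). IACS-70654 against vehicle had 7 of 95 calls, 3 higher and 4 lower, beside 3.91% (1.56% higher and 2.36% lower). IACS-70654 against WT had 7 of 93 calls, each of them higher, beside 3.27% (1.31% higher and 1.96% lower). At an adjusted p under 0.05 with no limit on size, 23, 22 and 33 receptor tests were called in the 3 comparisons of CD45+ cells beside 6.96%, 19.9% and 17% of all tests, and 6, 21 and 19 in c-Kit+ cells beside 3.15%, 13.1% and 10.8%. Comparisons with vehicle share the vehicle libraries and those with WT share the WT libraries, so the 3 counts of a sort are not independent. Leaving out 1 library moved 4 of these counts by more than 1.5 times. Without IACS-70654 replicate 1 the comparison with vehicle had 3 calls in CD45+ and 3 in c-Kit+ cells, without vehicle replicate 1 that of vehicle with WT had 0 in c-Kit+ cells, and without WT replicate 1 or 2 that of IACS-70654 with WT had 4 there. In 53 of these 54 calls the CPM of the compared groups did not overlap. The calls were made on the same libraries, so this adds no separate support, and the share over all called genes is not given here. Whether the IACS-70654 effect differed between classes was tested in 5 pairs of classes, and 5 of 40 receptor tests were called there (3 without vehicle replicate 2), near the 12.1% of all genes and pairs. An exact permutation test of 2 libraries against 2 cannot go below p = 0.33, so single values carry no such test.

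Csf3r, which binds G-CSF, stood higher in the later stages of neutrophil maturation. The level was 110.3 and 124 CPM in WT, 109 and 109.8 CPM with vehicle, and 98.5 and 109 CPM with IACS-70654 in early neutrophil precursors, which express azurophil granule genes, and 105 to 136 CPM over all libraries in cycling preNeu. Immature neutrophils held 163 to 189 CPM and intermediate neutrophils 293 to 376 CPM. In mature neutrophils the values were 1102 and 1154 CPM in WT, 1434 and 1452 CPM with vehicle, and 962 and 971 CPM with IACS-70654. Il1b-rich neutrophils were named from a marker list that holds Il1b, Cxcl2 and Ccl3, of which Il1b led the class. They stood highest with 3570.1 and 4585 CPM in WT, 3355 and 3439 CPM with vehicle, and 2749.7 and 2726 CPM with IACS-70654. The ranges of Il1b-rich, mature and intermediate neutrophils overlapped neither each other nor any other class. From monocytes (154 to 232 CPM) downwards, through immature neutrophils, B cells and preNeu, neighboring ranges overlapped.

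In mature neutrophils both vehicle libraries were above both WT libraries and both IACS-70654 libraries were below both WT libraries. The fitted change was 0.49 (SE 0.026, adjusted p = 3.3e-24) for vehicle against WT, which did not pass the limit on size, and -0.81 (SE 0.026, adjusted p = 2.2e-35) for IACS-70654 against vehicle. This call held in each of its alternatives, and with library size alone the change was -0.58. In Il1b-rich neutrophils, a class of cluster 4 alone, the WT libraries were highest and the IACS-70654 libraries lowest, with no overlap. Against WT, IACS-70654 gave a change of -0.53 (SE 0.073, adjusted p = 7.4e-10). It fell short of the size limit without WT replicate 2 (-0.33), without vehicle replicate 2 (-0.50), without IACS-70654 replicate 2 (-0.49) and after thinning (-0.38), without the filter on low counts (-0.37) and without the filter on cells (-0.49). Il1b-rich cells were 1.79% and 1.91% of kept cells in WT, 6.24% and 5.82% under vehicle and 11.78% and 11.65% under IACS-70654. Over all CD45+ cells pooled Csf3r stood at 316 and 316 CPM in WT, 531 and 545 CPM with vehicle, and 351 and 356 CPM with IACS-70654. It was called higher in vehicle than in WT, at 1.12 (SE 0.03, adjusted p = 3.8e-12) beside 24.4% of all genes, and lower in IACS-70654 than in vehicle, at -0.83 (SE 0.03, adjusted p = 9.2e-11) beside 19.7%. The part of the shares of the classes in these pooled changes was not tested. In the remaining stages Csf3r was called in no comparison.

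**Figure D2:**
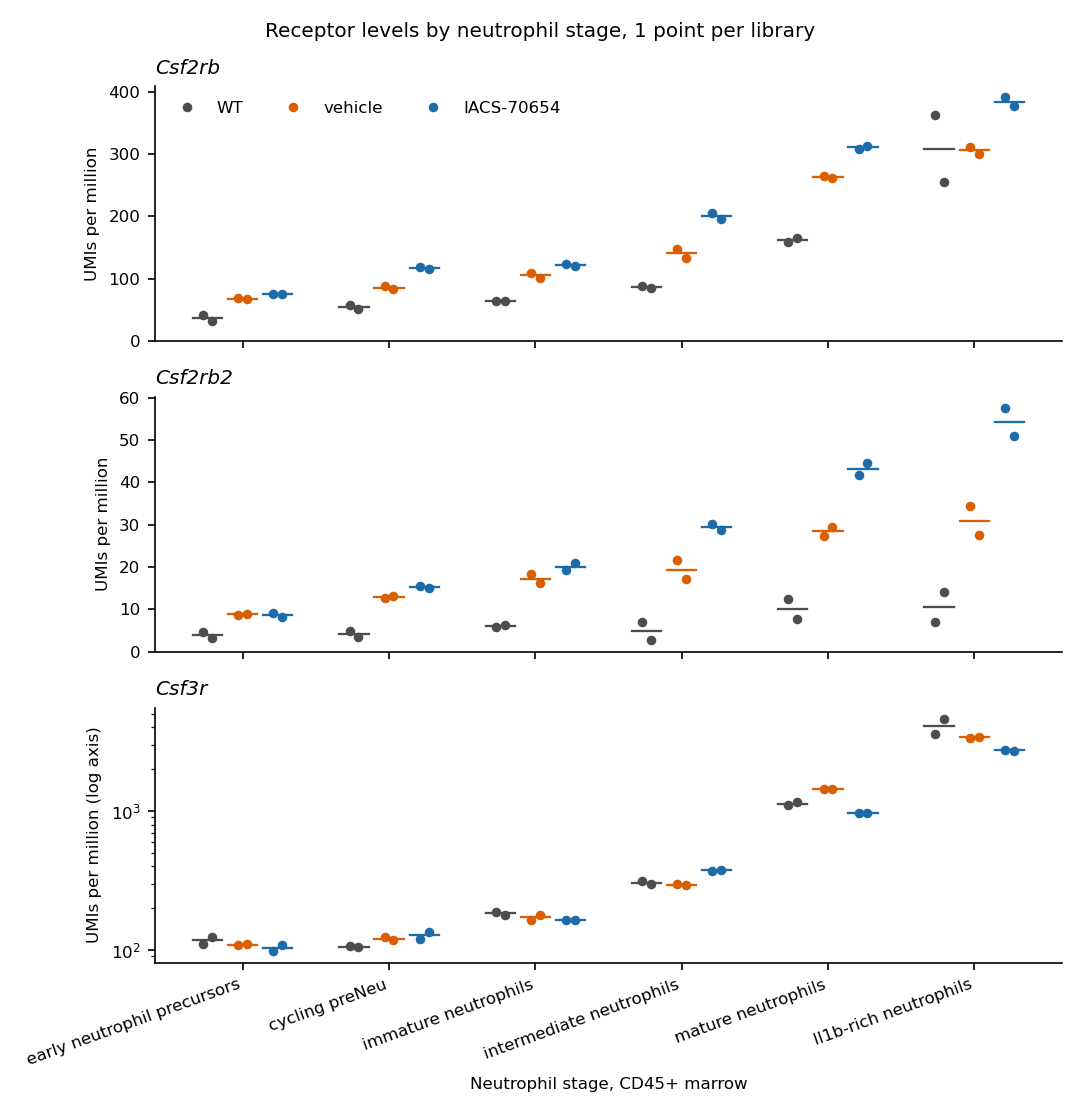
CPM of Csf2rb, Csf2rb2 and Csf3r (log axis for Csf3r only) in 6 neutrophil stages ordered from early precursors to Il1b-rich cells, 1 point per library, colored by group. For Csf2rb and Csf2rb2 the 2 WT libraries lie below the vehicle and IACS-70654 libraries in the first 5 stages, and for Csf3r the IACS-70654 libraries lie lowest in mature and Il1b-rich neutrophils.

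Because clusters differed between groups, immature, intermediate, mature and Il1b-rich neutrophils with at least 1000 UMIs were also pooled and cut into 6 equal bins of a maturation score (mature minus immature marker genes), an alternative chosen after the clusters had been seen that leaves out early precursors and preNeu. Csf3r in the least mature bin was 168 and 163 CPM in WT, 161 and 172 CPM with vehicle, and 159 and 154 CPM with IACS-70654. In the most mature bin it was 1664 and 1770.1 CPM in WT, 2036 and 2097 CPM with vehicle, and 1503 and 1487 CPM with IACS-70654. In the first of these WT and vehicle overlapped and IACS-70654 lay below both. In the last no groups overlapped, with IACS-70654 lowest and vehicle highest. The change from vehicle to IACS-70654 was called in the 2 most mature of 6 bins, with -0.59 (SE 0.043, adjusted p = 4.8e-23) and -0.67 (SE 0.041, adjusted p = 5.7e-47), and lay between -0.48 and -0.32 in the other 4. The bins were fitted with TMM factors and not with library size alone. Mean CPM went from 1964 to 1525 in bin 5 and from 2066.5 to 1495 in bin 6. As a ratio of the CPM neither change reached the limit on size. Over the 6 bins 6.86% of all gene and bin tests were called lower. From WT to vehicle the fitted Csf3r change was 0.24 to 0.37 and was called in 0 of 6 bins by edgeR, although the adjusted p was under 0.01 in each. In bins 1 and 2 the CPM of WT and vehicle overlapped, with means of 165 and 167 CPM, then 300 and 294 CPM. The fitted rise in these bins came with the TMM factors and is not seen in the CPM. DESeq2 was not run on the bins.

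**Figure D3:**
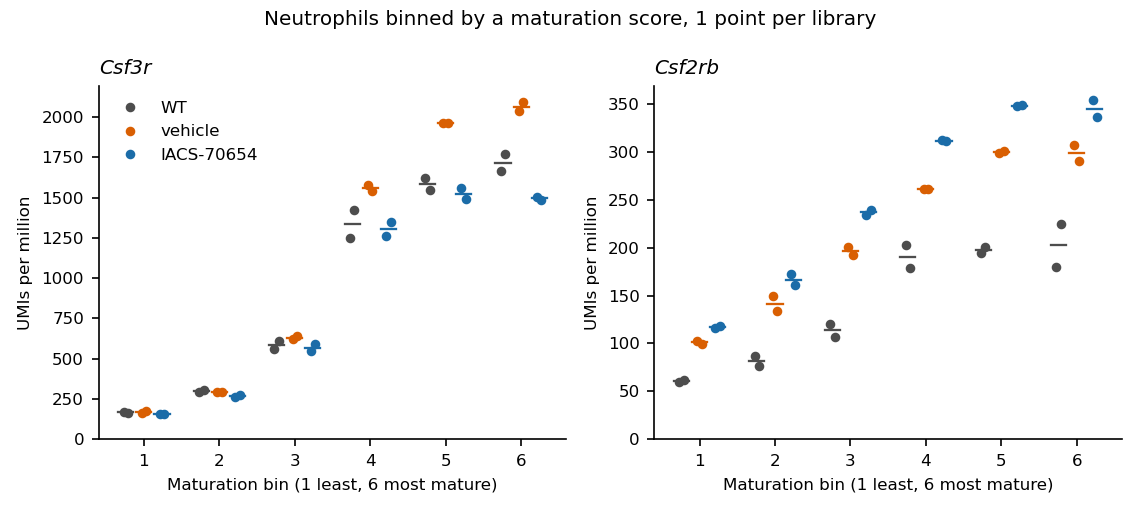
CPM of Csf3r and Csf2rb in 6 bins of a maturation score from least to most mature, 1 point per library and a short line at each group mean, colored by group. In bin 6 Csf3r runs from 1487 to 2097 CPM with IACS-70654 lowest and vehicle highest, whereas Csf2rb is lowest in WT in each bin.

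Csf3r UMIs outside neutrophils moved between groups as well. B cells had 95.7 and 104 CPM in WT, 202 and 217 CPM with vehicle, and 159 and 128 CPM with IACS-70654, and both vehicle libraries were above the others. In IACS-70654 89.2% of B cells were in cluster 18, and in the other groups most were in cluster 12. The change from WT to vehicle was 1.09 (SE 0.16, adjusted p = 7.4e-04), and it was not called without WT replicate 1 (1.03, adjusted p = 0.018) or vehicle replicate 2 (1.01, adjusted p = 0.014), without the filter on cells (1.14, adjusted p = 0.013) or on thinning (1.35, adjusted p = 0.072). T and NK cells held 37.6 and 23.3 CPM in WT, 86.8 and 103 CPM with vehicle, and 126 and 149.5 CPM with IACS-70654, with both IACS-70654 libraries highest and WT lowest. The change from WT to IACS-70654 was 2.05 (SE 0.35, adjusted p = 0.0074), from 21 to 124 cells per library, and it was lost without WT replicate 2 (1.79, adjusted p = 0.015) and by DESeq2 (2.11). In pDCs the level was 38.8 and 28.3 CPM in WT, 78.2 and 46.5 CPM with vehicle, and 44 and 110.4 CPM with IACS-70654. The tumor-bearing groups overlapped and WT was lowest, with a change of 1.23 (SE 0.29, adjusted p = 0.0047) from WT to IACS-70654 that fell to 0.37 without IACS-70654 replicate 2 and was also lost without WT replicate 2 (1.03) or either vehicle library (1.23) and by DESeq2 (1.21). All 9 neutrophil markers, among them S100a8 and S100a9, had UMIs in these classes. In B cells their CPM summed to 53601 and 56774 in WT, 65087 and 84369 under vehicle, and 48889 and 61613 under IACS-70654. In T and NK cells the sum was 38101 and 19220.0 in WT, 96311 and 86024 under vehicle, and 33633 and 25519 under IACS-70654. In pDCs it was 20650.0 and 13756 in WT, 25622 and 31985 under vehicle, and 25027 and 36626 under IACS-70654. The part of neutrophil RNA in these Csf3r values was not tested.

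Among c-Kit+ progenitors Csf3r was highest in HSC/MPP-like cells, with 82 and 72.9 CPM in WT, 101 and 103 CPM with vehicle, and 65.2 and 62.7 CPM with IACS-70654. Vehicle was highest and IACS-70654 lowest, without overlap, and the change from vehicle to IACS-70654 of -0.72 (SE 0.10, adjusted p = 2.7e-08) held in each alternative. Neutrophil progenitors followed with 61.5 and 55.5 CPM in WT, 63.9 and 68 CPM with vehicle, and 47.4 and 48.9 CPM with IACS-70654. There too both IACS-70654 libraries were lowest, and the change from vehicle of -0.51 (SE 0.066, adjusted p = 1.9e-09) was just past the limit. It fell short without vehicle replicate 2 (-0.49), without IACS-70654 replicate 1 (-0.48), with library size alone (-0.44), without the filter on low counts (-0.49) and on thinning (-0.45). The summed neutrophil markers of this class were higher in IACS-70654, with values given beside Csf2rb. Ranges of HSC/MPP-like cells, neutrophil progenitors, cycling MPP-like and MPP-like cells overlapped in turn, and erythroid progenitors held 0.89 to 2.69 CPM. Against WT, edgeR called Csf3r in 0 of 10 classes in vehicle (2 at an unadjusted p under 0.05) and in 0 of 10 in IACS-70654 (4 such), and DESeq2 called 0 of 2 and 0 of 6.

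Csf2rb, the chain shared by the GM-CSF, IL-3 and IL-5 receptors, was the receptor with most calls. It was higher in tumor-bearing mice at each stage from early precursors to mature neutrophils. Early precursors held 42.2 and 32.4 CPM in WT, 68.7 and 67.4 CPM with vehicle, and 75.1 and 75.9 CPM with IACS-70654. The preNeu level was 58.1 and 51.1 CPM in WT, 88.2 and 82.8 CPM with vehicle, and 119 and 115 CPM with IACS-70654. Immature neutrophils stood at 63.4 and 63.8 CPM in WT, 109.7 and 101 CPM with vehicle, and 123 and 120.5 CPM with IACS-70654. Within each group both libraries were higher at each later stage of these 3. Intermediate neutrophils held 88.6 and 84.5 CPM in WT, 148 and 133 CPM with vehicle, and 206 and 197 CPM with IACS-70654. Mature neutrophils reached 159 and 165 CPM in WT, 264 and 261 CPM with vehicle, and 309 and 313 CPM with IACS-70654. In all 5 stages the 4 libraries of tumor-bearing mice lay above the 2 WT libraries. From WT to vehicle the change was called in these 5 of 6 stages, beside 2.43% of all gene and stage tests called higher, at 0.97 (SE 0.12, adjusted p = 2.9e-08) in early precursors, 0.79 in preNeu, 0.93 in immature, 0.89 in intermediate and 0.83 (SE 0.044, adjusted p = 3.8e-24) in mature neutrophils. From WT to IACS-70654 the same 5 stages were called, beside 5.38%, at 0.91, 1.02, 0.93, 1.17 and 0.84. Thinning cells to 1000 UMIs ended 5 of these calls, with changes of 0.57 and 1.02 in early precursors and 0.79 and 1.1 in preNeu for vehicle and IACS-70654, and of 0.88 in intermediate neutrophils for vehicle (adjusted p = 0.039 to 0.71).

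Il1b-rich neutrophils held 363 and 255 CPM in WT, 311 and 301 CPM with vehicle, and 392 and 377 CPM with IACS-70654, where WT overlapped vehicle and both IACS-70654 libraries were highest, and Csf2rb was not called there. From vehicle to IACS-70654 edgeR called Csf2rb in 0 of 12 CD45+ classes, with 3 at an unadjusted p under 0.05 and 0 of 12 called by DESeq2. In the 6 maturation bins Csf2rb was called higher in each bin from WT to vehicle, by 0.51 to 1.06 (3.27% of all gene and bin tests), and in each bin from WT to IACS-70654, by 0.54 to 1.04 (6.53%). The ratio of the mean CPM from WT to vehicle fell short of the limit on size in bin 4 (190 to 261 CPM). From vehicle to IACS-70654 the fitted changes of the bins lay between -0.02 and 0.05. In CPM both IACS-70654 libraries were above both vehicle libraries in each bin, as with 313 and 311 against 261 and 262 CPM in bin 4. These fitted changes thus depend on the TMM factors. After thinning, the share of mature neutrophils with a Csf2rb UMI was 15.2 and 16.3 in WT, 25.1 and 25 under vehicle, and 29.8 and 26.4 under IACS-70654 (percent of cells), and it was 2.15 to 8.33% in B cells. Both WT libraries had the lowest share.

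Csf2rb2, like its neighbor, was lowest in WT from early precursors to mature neutrophils. In early precursors it was 4.76 and 3.27 CPM in WT, 8.75 and 8.82 CPM with vehicle, and 9.09 and 8.19 CPM with IACS-70654. The preNeu level was 4.98 and 3.37 CPM in WT, 12.7 and 13.1 CPM with vehicle, and 15.6 and 15 CPM with IACS-70654. Immature neutrophils stood at 5.86 and 6.41 CPM in WT, 18.3 and 16.2 CPM with vehicle, and 19.2 and 20.9 CPM with IACS-70654. Vehicle and IACS-70654 overlapped in early precursors, and IACS-70654 was the higher in the other two. Intermediate neutrophils held 6.9 and 2.68 CPM in WT, 21.6 and 17.2 CPM with vehicle, and 30.2 and 28.8 CPM with IACS-70654. Mature neutrophils reached 12.3 and 7.76 CPM in WT, 27.4 and 29.5 CPM with vehicle, and 41.7 and 44.5 CPM with IACS-70654. Il1b-rich neutrophils had 6.97 and 14.2 CPM in WT, 34.4 and 27.5 CPM with vehicle, and 57.5 and 51.1 CPM with IACS-70654. The WT values of Il1b-rich and intermediate neutrophils rest on a few Csf2rb2 UMIs. Each of these 6 stages had both WT libraries below the 4 others. The change from WT to vehicle was 1.76 (SE 0.26, adjusted p = 1.3e-09) in preNeu, 1.7 (SE 0.22, adjusted p = 1.7e-09) in immature and 1.63 (SE 0.15, adjusted p = 8.5e-14) in mature neutrophils, and from WT to IACS-70654 it was 1.79, 1.71 and 1.99 (SE 0.15, adjusted p = 1.5e-17). The calls in preNeu and mature neutrophils held in each alternative that could be run, while those in immature neutrophils were lost on thinning, at 1.42 (adjusted p = 0.11) and 1.23 (adjusted p = 0.093).

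The other Csf2rb2 calls were lost in some alternatives. In intermediate neutrophils the change was 2.15 (SE 0.41, adjusted p = 6.4e-05) in vehicle, lost without WT replicate 2 (1.68, adjusted p = 0.051), and 2.52 (SE 0.39, adjusted p = 1.4e-07) in IACS-70654, and both were lost on thinning, at 3.28 (adjusted p = 0.040) and 2.99 (adjusted p = 0.046). In early precursors it was 1.23 (SE 0.32, adjusted p = 0.0083) in vehicle and 1.0 (SE 0.29, adjusted p = 0.0083) in IACS-70654. Both were lost without either WT library (1.51 and 0.97 in vehicle, 1.27 and 0.74 in IACS-70654) and without either library of the group compared with it (1.22 and 1.24 in vehicle, 0.93 and 1.08 in IACS-70654). In Il1b-rich neutrophils Csf2rb2 was called higher in IACS-70654 than in vehicle at 0.88 (SE 0.27, adjusted p = 0.0075) and than in WT at 2.39 (SE 0.65, adjusted p = 0.0047). Leaving out 1 library ended both calls, for each library of the groups compared, with changes of 0.72 to 1.04 and 1.99 to 2.98. Both were also lost by DESeq2 (0.91 and 2.40) and on thinning (0.88 and 3.1). Outside neutrophils Csf2rb2 was highest in basophils, with 107 and 79.1 CPM in WT, 116 and 83.8 CPM with vehicle, and 72.9 and 44.9 CPM with IACS-70654. There WT and vehicle overlapped and IACS-70654 was lowest, with no call.

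Basophils and their progenitors were also among the highest classes for Csf2rb. CD45+ basophils held 234 and 199 CPM in WT, 183 and 165 CPM with vehicle, and 165 and 155 CPM with IACS-70654, with WT highest. Monocytes held 127 and 132 CPM in WT, 184 and 167 CPM with vehicle, and 157 and 167 CPM with IACS-70654, with WT lowest. Neither class was called. In c-Kit+ basophil progenitors the level was 202 and 202 CPM in WT, 238 and 236 CPM with vehicle, and 132 and 173 CPM with IACS-70654. IACS-70654 was below vehicle in both libraries, a change of -0.76 (SE 0.14, adjusted p = 1.0e-04) that was not called without IACS-70654 replicate 1 (-0.52, adjusted p = 0.23). Mast progenitors, which express Cpa3 and Ms4a2, held 99.7 to 169 CPM of Csf2rb and 50.2 to 94.9 CPM of Csf2rb2.

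In progenitors of neutrophils and monocytes the WT libraries were again lowest. Monocyte progenitors held 35 and 34.9 CPM in WT, 46.9 and 49.6 CPM with vehicle, and 55.4 and 61 CPM with IACS-70654. Neutrophil progenitors held 21.2 and 23.6 CPM in WT, 31.2 and 31.2 CPM with vehicle, and 44.4 and 40.6 CPM with IACS-70654. All 4 libraries of tumor-bearing mice were above both WT libraries, and IACS-70654 was above vehicle. The change from WT to IACS-70654 was 0.66 (SE 0.088, adjusted p = 3.7e-10) and 0.86 (SE 0.14, adjusted p = 1.9e-06), and both calls held in each alternative. Neutrophil markers moved with the group in both classes. The summed CPM of 9 such markers was 64 and 48.8 in WT, 84.5 and 71.7 under vehicle, and 942 and 961 under IACS-70654 in monocyte progenitors. In neutrophil progenitors it was 1216 and 883 in WT, 1533 and 1922 under vehicle, and 6679.6 and 7732 under IACS-70654. IACS-70654 was highest in both, and the part of this shift in the receptor changes of these classes was not tested. Csf2rb2 in monocyte progenitors was 2.38 and 2.02 CPM in WT, 3.83 and 5.37 CPM with vehicle, and 5.61 and 5.96 CPM with IACS-70654, a change of 1.3 (SE 0.30, adjusted p = 4.5e-04) from WT to IACS-70654 that was lost without WT replicate 1 (1.45) or 2 (1.20), by DESeq2 (1.33) and on thinning (1.31).

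Csf2rb in MPP-like cells stood at 41.8 and 38.9 CPM in WT, 64.6 and 62 CPM with vehicle, and 65.7 and 71.7 CPM with IACS-70654. WT was lowest, without overlap, and the change to IACS-70654 was 0.71 (SE 0.16, adjusted p = 1.0e-03), lost without WT replicate 1 (0.77), WT replicate 2 (0.66) or IACS-70654 replicate 2 (0.65), by DESeq2 (0.72) and on thinning (0.41). Cycling MPP-like cells had 28.7 and 26.3 CPM in WT, 75.1 and 51.6 CPM with vehicle, and 44.8 and 53.5 CPM with IACS-70654. There the vehicle change against WT, 1.25 (SE 0.20, adjusted p = 4.9e-05), was the only receptor call of vehicle against WT in c-Kit+ cells and was lost without vehicle replicate 1 (0.84, adjusted p = 0.11) and on thinning (1.07, adjusted p = 0.38). From vehicle to IACS-70654 the change in this class was -0.51 (SE 0.12, adjusted p = 0.0026) although the CPM of the groups overlapped, and it was -0.10 without vehicle replicate 1 and -0.33 without IACS-70654 replicate 1. Lymphoid-primed progenitors had 20.6 and 9.57 CPM in WT, 29.6 and 20.2 CPM with vehicle, and 40.7 and 33.8 CPM with IACS-70654. IACS-70654 was highest, with a change of 1.17 (SE 0.29, adjusted p = 0.0068) from WT that was lost without WT replicate 2 (0.75), vehicle replicate 1 (1.17, adjusted p = 0.012) or IACS-70654 replicate 1 (1.01) and on thinning (1.04, adjusted p = 0.13). HSC-like cells held 17.7 and 15.1 CPM in WT, 27.5 and 26.4 CPM with vehicle, and 12.2 and 4.28 CPM with IACS-70654, lowest in IACS-70654, with no call.

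Csf2ra, the chain that binds GM-CSF, was spread over the myeloid classes. Monocyte precursors held 174 to 232 CPM, monocytes 168 to 209 CPM, mature neutrophils 171 to 211 CPM and intermediate neutrophils 154 to 188 CPM, and the ranges of neighbors overlapped. Lower values without overlap were found in immature neutrophils (140.0 to 149 CPM), then in early precursors (124 to 137 CPM). Il1b-rich neutrophils held 279 and 298 CPM in WT, 174 and 162 CPM with vehicle, and 214 and 182 CPM with IACS-70654. WT was highest there without overlap, and the change from WT to vehicle was -0.81 (SE 0.21, adjusted p = 0.0064), the only Csf2ra call of either sort. It was lost when any 1 of the 6 libraries was left out, with changes of -0.84 to -0.73, by DESeq2 (-0.84) and on thinning (-0.88). From vehicle to IACS-70654 edgeR called Csf2ra in 0 of 12 CD45+ classes, with 6 at an unadjusted p under 0.05 and 0 of 12 called by DESeq2. In c-Kit+ cells it was highest in neutrophil progenitors, with 56.9 and 41.9 CPM in WT, 61.3 and 61.1 CPM with vehicle, and 47.3 and 49.5 CPM with IACS-70654. Monocyte progenitors followed with 44.6 to 56.8 CPM, and the ranges of both classes overlapped. Of 36 Csf2ra tests in that sort edgeR called 0 (7 at an unadjusted p under 0.05, 0 of 17 by DESeq2).

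Il3ra, the chain that binds IL-3, was low in neutrophils and highest in basophils, with 41.7 and 48.1 CPM in WT, 59.3 and 30.1 CPM with vehicle, and 27.9 and 24.2 CPM with IACS-70654. In c-Kit+ basophil progenitors it was 46.6 and 43.7 CPM in WT, 40 and 52.2 CPM with vehicle, and 32.1 and 31.8 CPM with IACS-70654. In both classes WT and vehicle overlapped and IACS-70654 was lowest, with no call. Other markers of CD45+ basophils moved with the group. The summed CPM of 8 basophil and mast cell markers was 13566 and 13776 in WT, 23594 and 19966 under vehicle, and 9325 and 7197 under IACS-70654. That of 8 HSC-like markers was 1166 and 1000.2 in WT, 455 and 1064 under vehicle, and 2363 and 2266 under IACS-70654. The part of these shifts in the receptor levels of basophils was not tested. In immature, intermediate and mature neutrophils IACS-70654 stood highest. Immature neutrophils held 1.53 and 2.51 CPM in WT, 3.22 and 2.65 CPM with vehicle, and 5.97 and 6.24 CPM with IACS-70654. Intermediate neutrophils had 3.45 and 2.68 CPM in WT, 1.73 and 2.19 CPM with vehicle, and 6.51 and 4.77 CPM with IACS-70654. The mature stage had 2.06 and 2.8 CPM in WT, 2.48 and 1.34 CPM with vehicle, and 5.71 and 3.63 CPM with IACS-70654. In each of these 3 stages both IACS-70654 libraries were above the other 4, at levels of a few CPM. The change was 1.6 (SE 0.36, adjusted p = 2.2e-04) against WT in immature neutrophils, 1.23 (SE 0.37, adjusted p = 0.0059) against vehicle in intermediate neutrophils and 1.06 (SE 0.33, adjusted p = 0.0076) against vehicle in mature neutrophils. DESeq2 called none of these 3. The first was lost without WT replicate 1 (1.27). The second was lost without vehicle replicate 1 (1.08) or 2 (1.41) and without IACS-70654 replicate 1 (1.00) or 2 (1.44). The last was lost without WT replicate 1 (1.05) or 2 (1.06), vehicle replicate 2 (0.63) or IACS-70654 replicate 1 (0.73). In c-Kit+ cells edgeR called Il3ra in 0 of 30 tests (1 at an unadjusted p under 0.05, 0 of 11 by DESeq2).

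Csf1r, the CSF-1 receptor, whose gene lies on chromosome 18, was highest in the monocyte line. In CD45+ cells monocytes held 209.5 and 204 CPM in WT, 219 and 182 CPM with vehicle, and 205 and 201 CPM with IACS-70654. Il1b-rich neutrophils came next with 146 and 177 CPM in WT, 125 and 149 CPM with vehicle, and 116 and 119 CPM with IACS-70654. Monocyte precursors had 111 and 88.3 CPM in WT, 100.2 and 114 CPM with vehicle, and 94 and 82.6 CPM with IACS-70654. The ranges of these classes did not overlap each other over the 6 libraries, and mature neutrophils were next with 48.3 to 54.5 CPM. Within monocytes the 3 groups overlapped. The pDCs held 24.1 and 29 CPM in WT, 42 and 33.5 CPM with vehicle, and 51.2 and 65.5 CPM with IACS-70654, with both WT libraries lowest and both IACS-70654 libraries highest. The change of 1.12 (SE 0.24, adjusted p = 0.0019) from WT to IACS-70654 was the only Csf1r call and was lost without WT replicate 1 (0.98) or IACS-70654 replicate 2 (0.90) and by DESeq2 (1.13, adjusted p = 0.095). Marker levels moved with the group in this class. The summed CPM of 6 pDC markers was 3724 and 3670.3 in WT, 3409 and 3718 under vehicle, and 2235 and 1963 under IACS-70654. That of 8 HSC-like markers was 294 and 274 in WT, 326 and 260.3 under vehicle, and 475 and 519 under IACS-70654. The part of these shifts in the Csf1r and Csf3r changes of pDCs was not tested. From vehicle to IACS-70654 edgeR called 0 of 9 CD45+ classes (4 at an unadjusted p under 0.05, 0 of 9 by DESeq2), and from WT to vehicle 0 of 9 (0 at an unadjusted p under 0.05, 0 of 7 by DESeq2).

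Monocyte progenitors led for Csf1r in the c-Kit+ sort, with 56.7 and 55.4 CPM in WT, 63.2 and 59 CPM with vehicle, and 44.3 and 51.2 CPM with IACS-70654. IACS-70654 was lowest without overlap, and the change from vehicle of -0.42 (SE 0.068, adjusted p = 1.7e-07) stayed under the limit on size. Neutrophil progenitors held 6.71 and 6.29 CPM in WT, 5.0 and 3.21 CPM with vehicle, and 5.6 and 6.05 CPM with IACS-70654, with IACS-70654 above vehicle. The shift in neutrophil markers given above applies to both classes. The difference between the fitted changes in these 2 classes was 0.72 (SE 0.22, adjusted p = 0.019), in a test in which 8.9% of all genes were called at an adjusted p under 0.05 for these 2 classes. The adjusted p was 0.12 without vehicle replicate 2, 0.27 without IACS-70654 replicate 1 and 0.062 without IACS-70654 replicate 2, with differences of 0.60, 0.67 and 0.76. Lymphoid-primed progenitors were second for Csf1r (20.1 to 25.7 CPM), below monocyte progenitors and above the other classes with the exception of B-lineage progenitors, whose 8 Csf1r UMIs gave 0 to 24.7 CPM. Over the 24 Csf1r tests of this sort edgeR called 0 (4 at an unadjusted p under 0.05, 0 of 9 by DESeq2).

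Kit, the receptor of stem cell factor, was highest among CD45+ cells in early progenitors, with 174 to 259 CPM, and then in basophils, with 94.6 to 136 CPM. Later neutrophil stages held less of it. Early neutrophil precursors held 43.6 and 37.5 CPM in WT, 18.5 and 19.6 CPM with vehicle, and 45.3 and 47.2 CPM with IACS-70654. Both vehicle libraries were lowest there and IACS-70654 lay just above WT, with changes of -0.99 (SE 0.15, adjusted p = 3.0e-06) from WT to vehicle and 1.08 (SE 0.12, adjusted p = 6.2e-10) from vehicle to IACS-70654. This class held clusters 14, 15 and 17, and cluster 17 made up 39.6% of it in WT, 38.5% in vehicle and 18.9% in IACS-70654. Its summed neutrophil markers ran opposite to Kit, with a CPM of 216190.0 and 196850.0 in WT, 245950.0 and 245080.0 under vehicle, and 168790.0 and 168860.0 under IACS-70654, and their part in the Kit changes was not tested. After thinning to 1000 UMIs neither passed the test, with changes of -1.46 (adjusted p = 0.25) and 1.66 (adjusted p = 0.015), and the first was -0.54 without the filter on cells. In preNeu the values were 14.4 and 9.55 CPM in WT, 1.99 and 3.88 CPM with vehicle, and 3.46 and 2.35 CPM with IACS-70654. WT was highest there and the tumor-bearing groups overlapped. The changes against WT were -1.82 (SE 0.29, adjusted p = 1.3e-08) in vehicle and -2.14 (SE 0.32, adjusted p = 1.4e-09) in IACS-70654, and both held in each alternative that could be run. Immature neutrophils held 4.84 and 2.51 CPM in WT, 0.604 and 1.32 CPM with vehicle, and 1.0 and 1.18 CPM with IACS-70654, again with WT highest. The change from WT to IACS-70654 of -1.74 (SE 0.46, adjusted p = 0.002) was lost without WT replicate 1 (-1.18) or IACS-70654 replicate 1 (-1.63) or 2 (-1.87), and by DESeq2 (-1.76).

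**Figure D4:**
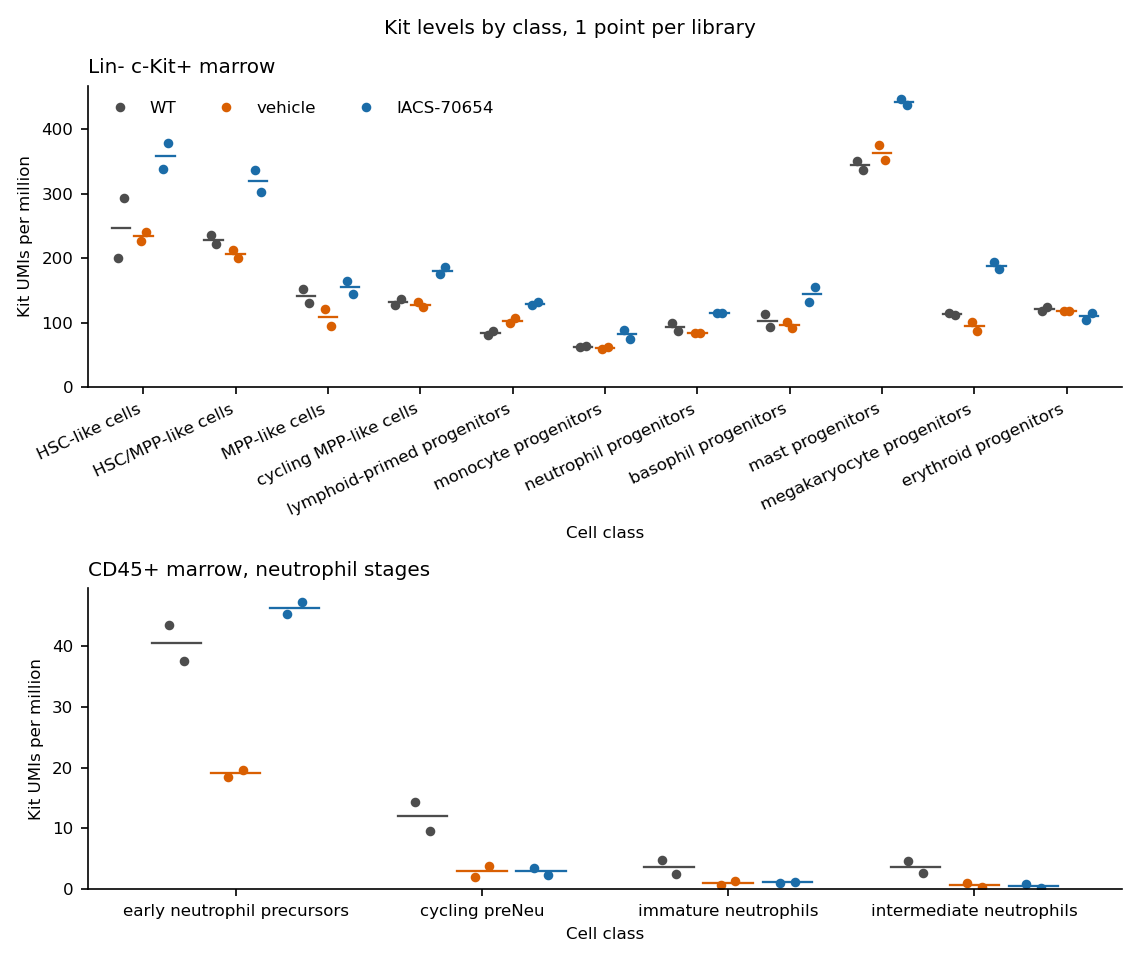
CPM of Kit in 11 classes of the c-Kit+ sort and the first 4 neutrophil stages of the CD45+ sort, 1 point per library, colored by group. IACS-70654 libraries lie highest in megakaryocyte progenitors (184 and 193 CPM), whereas vehicle libraries lie lowest in early neutrophil precursors (18.5 and 19.6 CPM).

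Cells of the c-Kit+ sort were gated on the protein Kit encodes, so that the presence of Kit RNA there follows from the sort. Mast progenitors were highest with 351 and 337 CPM in WT, 375 and 352 CPM with vehicle, and 448 and 438 CPM with IACS-70654, followed by HSC-like, early erythroid and HSC/MPP-like cells, whose ranges overlapped in turn. Megakaryocyte progenitors held 115 and 111 CPM in WT, 101 and 87.2 CPM with vehicle, and 193 and 184 CPM with IACS-70654. Both IACS-70654 libraries were above the other 4, and the changes were 0.90 (SE 0.086, adjusted p = 1.2e-19) against vehicle and 0.64 (SE 0.076, adjusted p = 1.4e-13) against WT. Clusters 5 and 13 made up this class, with 71.3% in cluster 5 in WT, 51.3% in vehicle and 70.4% in IACS-70654. Without the filter on cells the changes were 0.47 and 0.35, and neither was called. Summed erythroid markers of this class had a CPM of 478 and 390.5 in WT, 311 and 282 under vehicle, and 511 and 456 under IACS-70654. Vwf, a gene of megakaryocytes and stem cells, held 99.7 and 102 CPM in WT, 179 and 183 CPM with vehicle, and 37.3 and 44.5 CPM with IACS-70654. Pf4 held 3132 and 3430 CPM in WT, 4770 and 4717 CPM with vehicle, and 3420 and 3320 CPM with IACS-70654. Itga2b held 128 and 139 CPM in WT, 168 and 172 CPM with vehicle, and 134 and 140 CPM with IACS-70654. For Pf4 and Itga2b, which also mark megakaryocytes, IACS-70654 overlapped WT and vehicle was highest. The part of these shifts in the Kit changes was not tested. HSC/MPP-like cells held 236 and 222 CPM in WT, 213 and 201 CPM with vehicle, and 336 and 303 CPM with IACS-70654. In HSC-like cells the level was 201 and 293 CPM in WT, 227 and 241 CPM with vehicle, and 338 and 379 CPM with IACS-70654. IACS-70654 was highest in both, and the changes against vehicle were 0.58 (SE 0.065, adjusted p = 5.8e-12) and 0.59 (SE 0.13, adjusted p = 7.4e-04). The first fell short of the limit without IACS-70654 replicate 1 and on thinning (0.49 in each). The second was lost without vehicle replicate 1 (0.53) or IACS-70654 replicate 1 (0.70) or 2 (0.51), and by DESeq2 (0.60, adjusted p = 0.046). Lymphoid-primed progenitors had 81.3 and 86.2 CPM in WT, 98.8 and 107 CPM with vehicle, and 127 and 132 CPM with IACS-70654, with WT lowest and a change from WT to IACS-70654 of 0.54 (SE 0.14, adjusted p = 0.0092) that did not hold when any 1 library was left out (0.50 to 0.57). Erythroid progenitors held 117 and 124 CPM in WT, 118 and 117 CPM with vehicle, and 104 and 115 CPM with IACS-70654. IACS-70654 was lowest there, with 46.9% of the class in cluster 3 and 49.1% in cluster 7 against 57.1% and 39.3% in WT and 52.2% and 38.5% in vehicle, and the fitted change from vehicle of -0.13 (SE 0.057, adjusted p = 0.11) was not called. The change in erythroid minus that in megakaryocyte progenitors was -1.02 (SE 0.10, adjusted p = 1.2e-18), in a test in which 16.8% of all genes were called for these 2 classes. From WT to vehicle edgeR called Kit in 0 of 15 c-Kit+ classes (4 at an unadjusted p under 0.05, 0 of 14 by DESeq2).

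Flt3, the FLT3 ligand receptor, was highest in pDCs among CD45+ cells, with 275 and 299 CPM in WT, 297 and 269 CPM with vehicle, and 358 and 299 CPM with IACS-70654, and second in early progenitors, with 146 to 234 CPM. The groups overlapped in pDCs. Monocytes held 6.14 and 8.34 CPM in WT, 2.28 and 6.08 CPM with vehicle, and 41.4 and 33.7 CPM with IACS-70654. Both IACS-70654 libraries stood above the other 4, and the change was 3.13 (SE 0.34, adjusted p = 3.0e-07) against vehicle and 2.31 (SE 0.28, adjusted p = 1.1e-06) against WT. Neither call was lost in any alternative. In monocytes without a UMI of a conventional dendritic cell marker the changes were 3.55 against vehicle and 3.13 against WT. H2-Ab1, which made up most of these markers, had 164 to 359 UMIs per library in WT and vehicle monocytes. IACS-70654 monocytes held only 46 and 30, so through this marker the filter could remove few of them. Whether their Flt3 came from dendritic-like cells was therefore not tested. Monocyte precursors held 10.7 to 16.2 CPM, with overlap of the groups. From WT to vehicle edgeR called Flt3 in 0 of 5 CD45+ classes (1 at an unadjusted p under 0.05, 0 of 2 by DESeq2).

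In monocytes 8 of 197 and 10 of 229 cells had a Flt3 UMI in WT (4.06% and 4.37%), 3 of 154 and 5 of 164 with vehicle (1.95% and 3.05%), and 73 of 278 and 79 of 335 with IACS-70654 (26.3% and 23.6%). The share was 2.78 to 7.75% in B cells, which held a mean of 14.2 CPM of Flt3, and 0.296 to 0.535% in mature neutrophils. The shares of WT and vehicle monocytes lay above that of mature neutrophils and at or below the highest of B cells, and are read neither as expression nor as background. Median depth was 7012 to 8916 UMIs in monocytes and 2728 to 3644 in B cells. After thinning to 1000 UMIs the IACS-70654 shares were 5.40% and 3.59% of monocytes, that of vehicle replicate 2 was 0.621%, and the other 3 libraries had 0 of 154 to 229 cells, which allows a share of cells with a UMI at that depth, not of cells that express the gene, of up to 1.31 to 1.95%. Thinned B cells held at most 2.36% and thinned mature neutrophils at most 0.189%.

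**Figure D5:**
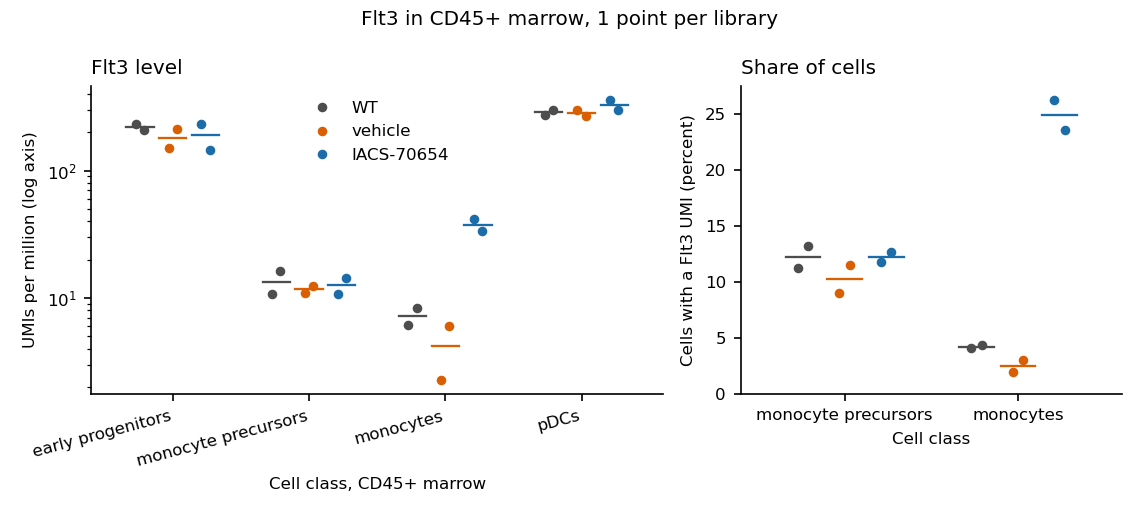
Flt3 CPM (log axis) in early progenitors, monocyte precursors, monocytes and pDCs of the CD45+ sort, 1 point per library by group. Beside it is the percentage of cells with at least 1 Flt3 UMI in monocyte precursors and monocytes. In monocytes the 2 IACS-70654 libraries stand at 33.7 and 41.4 CPM and 23.6 and 26.3% of cells, above WT and vehicle.

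All monocytes were 1 cluster (cluster 10), and other markers moved with the group in it. The summed CPM of 8 monocyte markers was 9128 and 9094 in WT, 9248 and 9558 under vehicle, and 7021 and 6852 under IACS-70654. Ly6c2 alone held 779 and 866 in WT, 836 and 911 under vehicle, and 289.6 and 312 under IACS-70654. Both were lowest under IACS-70654. The 6 conventional dendritic cell markers had a summed CPM of 242 and 187 in WT, 281 and 131 under vehicle, and 24.1 and 18.2 under IACS-70654, most of it H2-Ab1, and Xcr1, Clec9a and Zbtb46 were at 0 to 2.26 CPM. The CPM of Cd34, a gene of progenitors, was 0.683 and 1.11 in WT, 0.759 and 3.8 under vehicle, and 5.65 and 5.25 under IACS-70654. The summed dendritic cell markers were thus lowest in the group in which Flt3 was highest. The part of a change in the make-up of the class in the Flt3 values was not tested.

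In c-Kit+ cells Flt3 was highest in lymphoid-primed progenitors, which express Dntt and Satb1, with 503 and 608 CPM in WT, 438 and 498 CPM with vehicle, and 569 and 662 CPM with IACS-70654. HSC/MPP-like cells were second with 160.3 to 200.4 CPM, without overlap with the classes above or below. HSC-like cells held 66.2 and 50.5 CPM in WT, 55 and 58.2 CPM with vehicle, and 100.1 and 107 CPM with IACS-70654, with both IACS-70654 libraries highest, and the change against vehicle was 0.85 (SE 0.22, adjusted p = 0.014). Over the 40 Flt3 tests of this sort edgeR called 0, with 13 at an unadjusted p under 0.05 and 0 of 23 called by DESeq2.

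Epor, the erythropoietin receptor, was highest in erythroid progenitors of the c-Kit+ sort, with 55.6 and 53.2 CPM in WT, 53.8 and 56 CPM with vehicle, and 61.2 and 60 CPM with IACS-70654, and no other class reached this range in libraries with at least 20 of its cells. IACS-70654 was highest by a small margin, and the change from vehicle was 0.15 (SE 0.074, adjusted p = 0.13). Early erythroid progenitors held 16.8 to 31.3 CPM in the 5 libraries with at least 20 such cells, and megakaryocyte progenitors 10.8 and 13.5 CPM in WT, 9.0 and 7.54 CPM with vehicle, and 14.8 and 12.6 CPM with IACS-70654. By edgeR 0 of 9 Epor tests were called (3 at an unadjusted p under 0.05, 0 of 5 by DESeq2). Over all c-Kit+ cells together Epor stood at 22 and 22 CPM in WT, 10.1 and 10.4 CPM with vehicle, and 14.1 and 12.7 CPM with IACS-70654. It was lower in vehicle than in WT, with a change of -1.12 (SE 0.065, adjusted p = 1.7e-10), beside 9.76% of all genes called. The 2 erythroid classes made up 32.7% and 34.1% of kept cells in WT, 13.2% and 13.3% under vehicle and 11.8% and 10.4% under IACS-70654. In the CD45+ sort, gated on Ter119- cells, 58 of the 68 Epor UMIs in named classes were in basophils, and no class passed the filter for a test. The summed CPM of the 9 erythroid markers in that class was 1112 and 1194 in WT, 1072 and 572 under vehicle, and 332 and 639 under IACS-70654, and their part in its Epor UMIs was not tested.

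Patterns over the 30 classes were compared by the correlation of log2(mean CPM + 10), a description over classes that share libraries and depth. The closest genes were Sbno2 (r = 0.95), Clec4e (0.95) and Pgs1 (0.93) for Csf3r, where Clec4e is a marker used to name the Il1b-rich class. For Csf2ra they were App, Ralb and Pstpip2 (0.97 each), for Csf2rb Man2b1 (0.92), Myl12b (0.87) and Fes (0.86), and for Csf2rb2 Fam129a (0.83), Csf2rb (0.83) and Orai2 (0.80). For Csf1r they were Cd68 (0.93), a macrophage glycoprotein, Dock4 (0.92) and Mpeg1 (0.91). For Kit they were Dnajc6 (0.97), Nme4 (0.94) and Gm15657 (0.94), for Flt3 Arhgap32 (0.87), Rnf150 (0.86) and H2afy (0.84), and for Il3ra Stx3 (0.83), Papss2 (0.81) and Mboat1 (0.81). Epor was closest to Ces2g (0.98), Klf1 (0.97), a factor of erythroid cells, and Aqp1 (0.97), a water channel of red cells, and the last 2 are markers used to name the erythroid class.

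A list of 77 genes of the same pathways (ligands, other receptors, kinases and adaptors, STATs, inhibitors, targets and transcription factors) was followed beside the receptors. In CD45+ cells 28 of 753 tests were called higher and 9 lower in vehicle than in WT, 37 and 35 of 703 in IACS-70654 against vehicle, and 40 and 35 of 703 against WT, beside the shares of all tests given above. The targets had 9 higher and 3 lower of 109 tests in vehicle against WT, and the ligands 0 of 14. Pim1, a kinase induced by STAT5, held 183 and 189 CPM in WT, 274 and 277 CPM with vehicle, and 262 and 271 CPM with IACS-70654 in mature neutrophils. It changed from WT to vehicle by 0.70 (SE 0.043, adjusted p = 2.1e-21) there and 1.35 (SE 0.11, adjusted p = 8.6e-32) in preNeu. Socs3, a feedback inhibitor of cytokine receptors including Csf3r, held 37 and 35.8 CPM in WT, 117 and 112 CPM with vehicle, and 101 and 107 CPM with IACS-70654 in mature neutrophils, a change of 1.78 (SE 0.077, adjusted p = 1.3e-28) from WT to vehicle. Il4ra, a chain of the IL-4 receptor, held 29.6 and 30.2 CPM in WT, 88.7 and 90.4 CPM with vehicle, and 77.5 and 74 CPM with IACS-70654, a change of 1.72 (SE 0.084, adjusted p = 6.4e-26). For these genes the 4 libraries of tumor-bearing mice were above both WT libraries.

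Among ligands, Csf1, which encodes the ligand of Csf1r, held 272 and 319 CPM in WT, 463 and 409 CPM with vehicle, and 71.5 and 59.7 CPM with IACS-70654 in Il1b-rich neutrophils. IACS-70654 was lowest and vehicle highest, without overlap, and the change between them was -2.67 (SE 0.13, adjusted p = 7.3e-54). Csf1 was also called lower against vehicle in mature neutrophils (-1.02) and in basophils (-1.65). The 9 neutrophil markers of Il1b-rich neutrophils had a summed CPM of 94286 and 83080.0 in WT, 77344 and 80902 under vehicle, and 130470.0 and 133150.0 under IACS-70654, highest in IACS-70654, and the part of this shift in the Csf1, Csf3r and Csf2rb2 changes of that class was not tested. That of the basophil marker shift in the Csf1 change of basophils was not tested either. Gab2, an adaptor of Kit and cytokine receptors, held 121 and 118 CPM in WT, 108 and 106 CPM with vehicle, and 293 and 262 CPM with IACS-70654 in intermediate neutrophils, highest in IACS-70654, a change of 1.12 (SE 0.055, adjusted p = 2.4e-33) against vehicle. This class was mostly cluster 5 in vehicle (92.9%) and cluster 7 in IACS-70654 (94.1%), and the part of this in the Gab2 change was not tested. In c-Kit+ erythroid progenitors Gab2 was called lower against vehicle (-1.15).

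In c-Kit+ cells 12 of 735 pathway tests were called higher and 5 lower in vehicle against WT, 15 and 26 of 764 in IACS-70654 against vehicle, and 23 and 29 of 735 against WT, beside 0.661%, 3.91% and 3.27% of all tests called. Ifngr1, a chain of the interferon-γ receptor, held 54.8 and 49.8 CPM in WT, 43.1 and 36.9 CPM with vehicle, and 87.2 and 84.7 CPM with IACS-70654 in megakaryocyte progenitors, a change of 1.0 (SE 0.12, adjusted p = 1.0e-12) against vehicle. Gata2, a transcription factor of early progenitors, held 17.1 and 20.5 CPM in WT, 17.5 and 17.5 CPM with vehicle, and 6.65 and 8.01 CPM with IACS-70654 in erythroid progenitors, a change of -1.3 (SE 0.16, adjusted p = 8.1e-10). In megakaryocyte progenitors Gata2 was called higher against vehicle (0.51). The part of the marker shifts of that class, given beside Kit, in its Ifngr1 and Gata2 changes was not tested. Klf4, a factor of monocytes, held 34.8 and 29 CPM in WT, 48.8 and 46.8 CPM with vehicle, and 22.4 and 27.9 CPM with IACS-70654 in monocyte progenitors, with vehicle highest and IACS-70654 lowest, a change of -1.0 (SE 0.086, adjusted p = 1.7e-19). The 8 monocyte markers of that class had a summed CPM of 1690.1 and 1693 in WT, 1873 and 1877 under vehicle, and 1345 and 1403 under IACS-70654, and the part of this and of the neutrophil marker shift given above in the Klf4 change was not tested. Il6st, the shared chain of IL-6 family receptors, held 6.71 and 7.34 CPM in WT, 7.7 and 7.32 CPM with vehicle, and 17.7 and 14.7 CPM with IACS-70654 in neutrophil progenitors, highest in IACS-70654, a change of 1.06 (SE 0.14, adjusted p = 4.8e-09), in the class whose neutrophil markers were also highest in IACS-70654.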

How the data were processed

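Single-cell RNA-seq of sorted BM cells was analyzed in 12 libraries (2 sorts, 3 groups, 2 replicates). The authors deposited raw UMI counts per gene and cell, made with Cell Ranger (multi, per the file headers) on mm10, with no normalization. The tumor libraries of the series were not used here. A cell was kept if its genes numbered over 200 but under 6000 and mitochondrial UMIs were no more than 10%. In Python 3.11.15, scanpy 1.11.5 and leidenalg 0.10.2, each sort was clustered without integration and without the 9 receptor genes (2000 variable genes, 30 components, 20 neighbors, resolution 1), and clusters were named from marker lists. Automatic doublet calls marked 0.015 to 1.93% of cells, too few to use. The 5% of cells with the highest scores per library stayed in, except that 1 cluster per sort (155 and 343 cells) with over 25% of such cells was left unnamed and out of all classes, and leaving out all of them was an alternative.

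Counts were summed per class and library, leaving out libraries with fewer than 20 cells, and tested by the quasi-likelihood method of edgeR 4.0.16 (R 4.3.3) over the 6 libraries of a sort after filterByExpr and TMM, with Benjamini-Hochberg adjustment over all genes. Calls needed an adjusted p under 0.01 as well as a log2 change beyond 0.5. Differences of the IACS-70654 effect between 5 pairs of classes were tested as an interaction with the library as block, at an adjusted p under 0.05. DESeq2 1.42.0 was an alternative. On simulated data, with 200 genes changed by 1 on the log2 scale, edgeR recovered 63% in mature neutrophils (9681 genes, 2 false calls) and 51.5% in MPP-like cells (8941 genes, 1 false call). The receptors are named in each class in which a library had 3 or more of their UMIs, for likeness the 3 genes with the highest correlation, and pathway genes from those called, smallest adjusted p first, of which some are not reported here. The members, lists and classes were chosen with earlier results of these data known. Same-numbered replicates of different groups correlated at -0.091 to 0.039 in their deviations from group means, so the numbers do not pair the libraries.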

Additional observations from a re-analysis of the deposited data

Results flagged for a closer look

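In 5 of 40 tests of receptor genes over 5 pairs of classes, the change from vehicle to IACS-70654 differed between the classes of a pair. With 12.1% of all genes and pairs called, the receptors were near the background. Csf3r differed by -0.57 on the log2 scale between mature and immature neutrophils (SE 0.053, adjusted p = 6.8e-25), with -0.62 to -0.48 when 1 library was left out and -0.15 (adjusted p = 0.077) when classes were rebuilt after centring each library. Between mature neutrophils and monocytes Csf3r differed by -0.40 (SE 0.097, adjusted p = 0.0017), and by -0.30 (adjusted p = 0.083) without vehicle replicate 2. Flt3 differed by -3.76 between mature neutrophils and monocytes (SE 0.72, adjusted p = 6.6e-05), where mature neutrophils held few Flt3 UMIs. Csf1r differed by 0.72 between neutrophil and monocyte progenitors (SE 0.22, adjusted p = 0.019), and the call was lost without vehicle replicate 2 (0.60), IACS-70654 replicate 1 (0.67) or IACS-70654 replicate 2 (0.76). Kit differed by -1.02 between erythroid and megakaryocyte progenitors (SE 0.10, adjusted p = 1.2e-18), with -1.16 to -0.92 over the libraries left out.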

How the results depend on the processing

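No call of a receptor gene changed sign in any alternative. With an adjusted p under 0.05 and no limit on size, the CD45+ sort had 23 receptor calls for vehicle against WT, 22 for IACS-70654 against vehicle and 33 for IACS-70654 against WT, and the c-Kit+ sort 6, 21 and 19. DESeq2 made 3 calls for IACS-70654 against vehicle and 12 against WT in CD45+ cells, and 0 for vehicle and 3 for IACS-70654 against WT in c-Kit+ cells. Thinning cells to equal depth left 4, 2 and 4 calls in CD45+ cells and, against WT, 0 for vehicle and 3 for IACS-70654 in c-Kit+ cells, where fewer genes could be tested. Library size alone gave 10 calls for IACS-70654 against vehicle in CD45+ cells. Classes rebuilt after centring each library gave 6, 11 and 11 calls in c-Kit+ cells, and no filter on cells gave 3 for vehicle against WT. With 1 library left out the counts ran from 11 to 14, 3 to 6 and 13 to 17 in CD45+ cells, and 0 to 1, 3 to 9 and 4 to 7 in c-Kit+ cells. The calls of a differing IACS-70654 effect ran from 3 to 5, with 3 without vehicle replicate 2. Without thinning, 93 gene and class pairs exceeded both lymphoid classes of their sort in the share of cells with a UMI, against 47. The causes of these shifts were not tested. Apart from the adjusted p under 0.05, the shares of all genes called under these settings are not given here. The counts are therefore not read as a result about the receptors.

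The replicate block gave 14, 6 and 19 calls in CD45+ cells and 1, 6 and 8 in c-Kit+ cells, and it ended 1 of the 54 calls, that of Csf2rb in cycling MPP-like cells against vehicle (-0.50). Leaving out 1 library kept 277 and ended 77 of the calls recomputed in this way, DESeq2 kept 35 and ended 16, and thinning kept 15 and ended 24. Taking out the cells with the highest doublet scores kept 51 and ended 3. The class in which a receptor stood highest stayed in 18 of 18 cases without the cells with the highest doublet scores, in 16 when Csf2rb and Csf2rb2 were summed, and in 13 after centring. Centring left no Il1b-rich class in CD45+ cells and no HSC-like class in c-Kit+ cells, so their results have no value there, as have classes that fell under the test's filter after thinning. Centring also left 1 IACS-70654 cell in the monocyte class, so IACS-70654 results of monocytes have no value there. Alternatives chosen after the data were seen were library size alone, the maturation bins and monocytes without dendritic cell markers. Depth limits Epor in CD45+ cells and Il3ra and Kit in later neutrophil stages, which rest on a few CPM. It also limits Csf2rb2 in intermediate and Il1b-rich neutrophils of WT mice.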
